A study of Cavia porcellus with 10 samples.

Results

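The genes described here are receptors and close partners of innate immune sensing in the guinea pig cervix, and they were chosen by name: TLR2, TLR3, TLR4, TLR5, TLR7, MYD88, CD14, NOD1, NOD2 and NLRP3. Of these 10 names, 8 had a row among the 25028 Ensembl genes of the table, of which 20251 carry a gene name. TLR3 and TLR5 were not analysed here. All 8 genes with a row passed the filter on low values and were tested.

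RNA was sequenced from the vaginal portion of the cervix of Hartley guinea pigs in 3 reproductive stages, with 1 library per animal. The non-pregnant group (NP, n = 3) was in estrus and was killed the day after the membrane that closes the vulva had opened. The mid-pregnant group (MT, n = 3) was at 43.6 ± 0.5 days of gestation and the late pregnant group (LT, n = 4) at 65.2 ± 1.2 days (SD), with gestation estimated from the size of the fetuses, and the LT animals were not in labour. The labels name no treatment and no genetic change in any group, and the age of the animals is not given in the sources used here. The study asked how gene expression in the cervix changes from estrus to mid-pregnancy and from there to late pregnancy. Here NP was also compared with LT, so that each stage enters more than 1 comparison and the comparisons share animals.

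Pattern receptors detect molecules that microbes share. TLR2 and TLR4 sit at the cell surface, where TLR2 senses bacterial lipoproteins together with TLR1 or TLR6, and TLR4 senses lipopolysaccharide bound to its partner LY96, after CD14 has handed it over. TLR7 senses single-stranded RNA in endosomes. MYD88 is the adaptor through which all of these receptors signal to the kinase IRAK4 and the ubiquitin ligase TRAF6 and from there to NF-kB. NOD1 and NOD2 are cytosolic sensors of fragments of the bacterial cell wall and signal through the kinase RIPK2, and NLRP3 assembles an inflammasome that activates caspase-1. Such receptors are found on epithelium, stroma and leukocytes, and the data come from whole tissue, in which fewer cells of a type and less RNA per cell cannot be told apart.

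Abundance is given in TPM, a unit of relative transcript abundance that corrects for gene length and sums to the same total in every library, so levels of different genes can be set side by side. Counted reads lay between 20047660 and 27351763 in the NP libraries, between 18730665 and 25380420 in MT and between 25804572 and 27881572 in LT. A level of 1 TPM was backed by 14.5 to 22.9 reads for MYD88 and by 50.6 to 79.8 reads for NOD2, depending on the library, and the other members lay in the span of these values. Fold changes of members are limma estimates on log2(TPM + 1) in 1 fit over all animals, given with the standard error (SE) and a P-value adjusted over 13421 tested genes, and on this scale changes of genes with few transcripts come out too small. TPM is relative to all other transcripts, and the median over the 13421 genes was itself below zero, at -0.14 from NP to MT, -0.16 from MT to LT and -0.28 from NP to LT. The edgeR test on the deposited read counts, with TMM scaling between libraries, put these medians at -0.03, 0.00 and -0.02, and its values are given beside those of limma as changes relative to the bulk of the genes. Of the genes called by limma, 33.8%, 23.1% and 20.8% were higher in the later stage of these comparisons, against 56.1%, 46.4% and 48.0% of those called by edgeR.

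The members spanned a wide range of abundance. In NP, MYD88 was the most abundant at 46.3 ± 7.57 TPM (SD, n = 3), followed by CD14 and TLR4, whose animals overlapped, and by NOD1, TLR2, TLR7, NOD2 and NLRP3, in which each gene overlapped with its neighbour in the order. In MT, MYD88 and CD14 overlapped at the top, TLR4 and NOD1 overlapped below them, NOD2 and TLR2 stood apart from their neighbours, and NLRP3 and TLR7 overlapped at the bottom. In LT, CD14 stood at the top and did not overlap with MYD88, which in turn did not overlap with TLR4. TLR4, NOD1 and TLR2 overlapped with their neighbours in LT, and so did NOD2, TLR7 and NLRP3 below them. Averaged over the 10 animals, CD14 and MYD88 were above the median gene, with 71.9% and 69.2% of the tested genes below them, whereas the value was 37.9% for TLR4 and between 13.9% for NLRP3 and 27.6% for NOD1 among the other members. All stage means of the 8 genes were at or above 3 TPM, the level that the study used as its operational threshold of expression. The lowest mean was that of TLR7 in MT, where 1 of 3 animals was below the threshold.

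**Figure D1:**
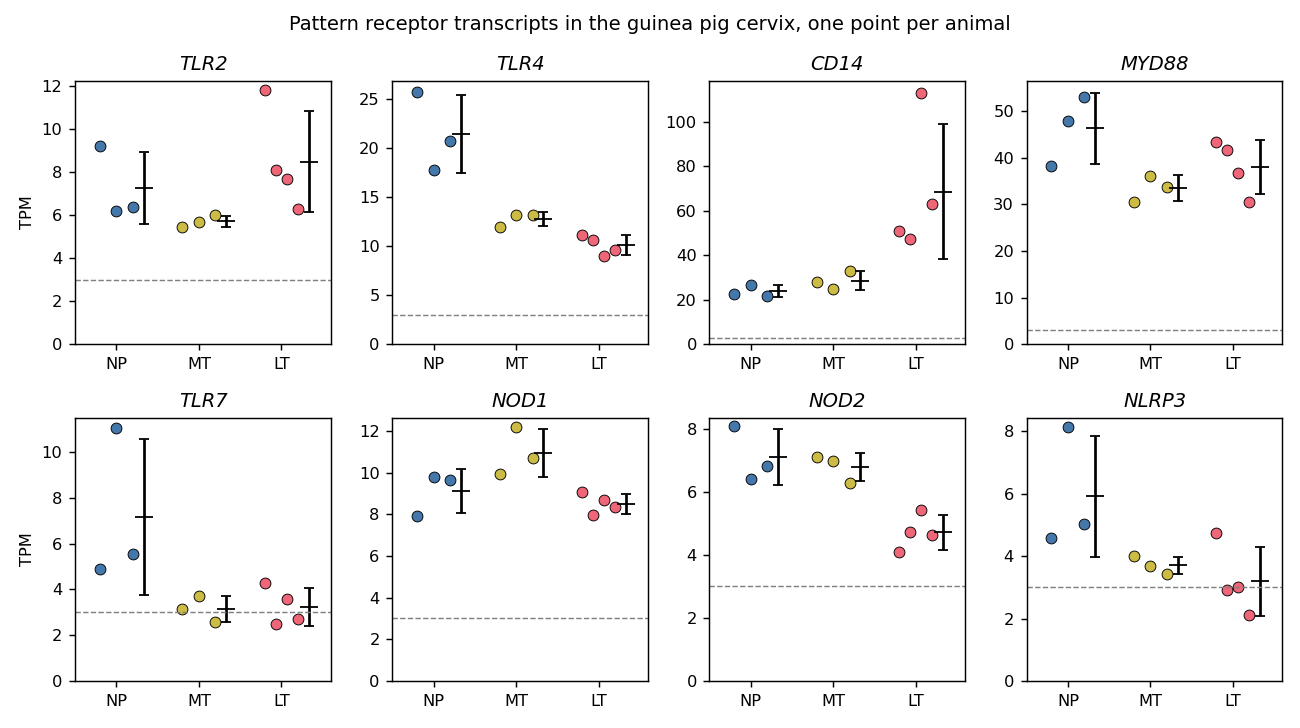
TPM of the 8 pattern receptor genes in each animal, by stage (NP, MT, LT). Points are animals, bars the mean ± SD, and the dashed line the threshold of 3 TPM. CD14 rose to between 47.5 and 113 TPM in LT, TLR4 was highest in the 3 NP animals, and the NP animals of TLR7 and NLRP3 were spread widely.

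From NP to MT, limma called 2 of the 8 members, TLR4 and TLR7, both lower in MT, where 18.0% of all tested genes were called, 6.07% higher and 11.9% lower. From MT to LT it called CD14 as higher and NOD2 as lower, against 28.3% of all genes, 6.53% higher and 21.8% lower. From NP to LT it called 5 members, CD14 as higher and TLR4, TLR7, NOD2 and NLRP3 as lower, against 51.9% of all genes, 10.8% higher and 41.1% lower. With edgeR the members called from NP to MT were NOD1 as higher and TLR4 and TLR7 as lower, where 17.3% of all genes were called, 9.73% higher and 7.61% lower. They were CD14 and TLR2 from MT to LT, both higher, where 28.1% of all genes were called and 13.0% were called as higher. From NP to LT edgeR called CD14 as higher and TLR4 and TLR7 as lower, where 48.0% of all genes were called, 23.0% higher and 24.9% lower. With 8 members nothing is read from these counts about the group, and the results below concern single genes. The median log2 fold change over the 8 members was -0.37 from NP to MT, -0.09 from MT to LT and -0.39 from NP to LT by limma, and -0.29, 0.09 and -0.14 by edgeR, so its sign from MT to LT turned with the scaling. The animals of the stages did not overlap for 6 members from NP to MT, 5 from MT to LT and 4 from NP to LT, beside 34.4%, 45.5% and 51.6% of all tested genes. In 2 of the 8 members, CD14 and TLR4, the change from NP to LT passed the test by both tools and under every alternative setting.

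**Figure D2:**
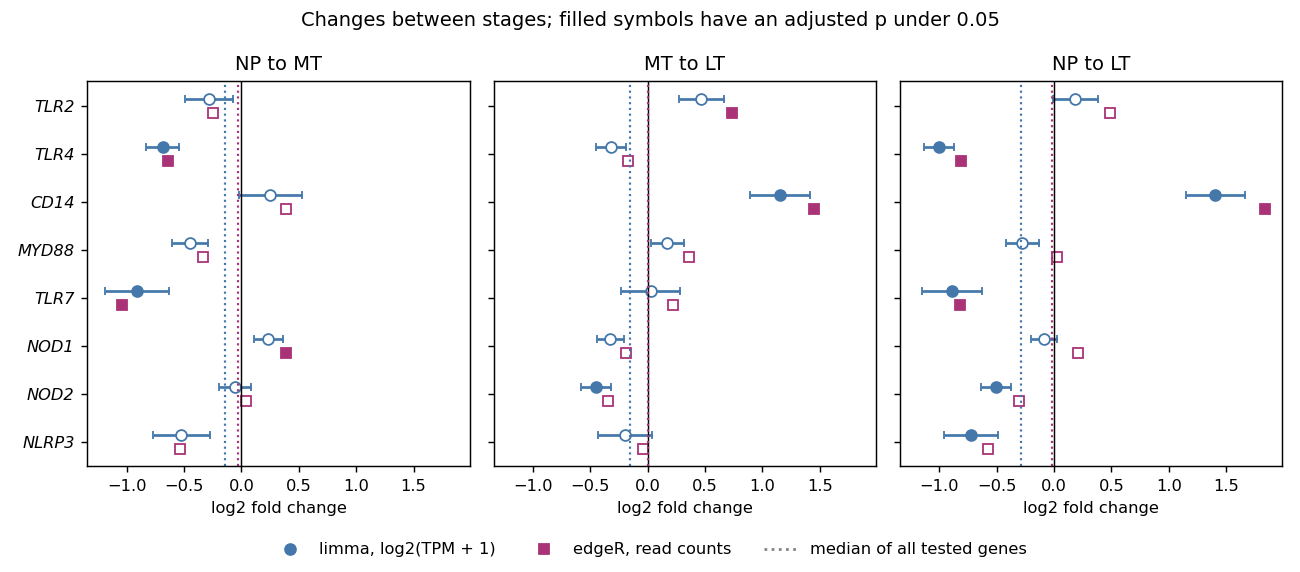
Log2 fold change of the 8 members in the 3 comparisons. Circles are limma estimates with SE and squares edgeR estimates on read counts, filled where the adjusted P is under 0.05. Dotted lines mark the median of all tested genes by limma and by edgeR, each in the colour of its symbols. CD14 lies to the higher side from MT to LT and NP to LT by both tools, TLR4 to the lower side from NP to MT and NP to LT, and the filled limma circles of NOD2 and NLRP3 have open edgeR squares.

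CD14 (ENSCPOG00000025223), the co-receptor that binds lipopolysaccharide and passes it to TLR4, was lower in NP and MT than in late pregnancy. The 3 NP animals had 22.7, 26.8 and 21.9 TPM, the MT animals 28.0, 24.8 and 33.1 TPM, and the LT animals 50.9, 47.5, 113 and 63.0 TPM. All 4 LT animals were above all 6 animals of the other stages, while NP and MT overlapped. Stage means were 23.8 ± 2.65 TPM in NP (SD, n = 3), 28.6 ± 4.17 TPM in MT (SD, n = 3) and 68.6 ± 30.3 TPM in LT (SD, n = 4). From MT to LT this is a 2.4-fold rise in mean TPM and a log2 fold change of 1.15 (SE 0.26, adjusted P = 0.0111 by limma). By edgeR the rise was 1.45 on the log2 scale with an adjusted P of 0.00913. From NP to LT the rise was 2.88-fold, with a log2 fold change of 1.41 (SE 0.26, adjusted P = 0.00167) by limma and 1.84 (adjusted P = 0.00132) by edgeR. The change from NP to MT did not pass the test (0.25, SE 0.28, adjusted P = 0.547). LT replicate 3 accounts for much of the spread in LT. Without it the LT mean was 53.8 TPM and the rise from MT to LT was 0.89 (adjusted P = 0.0105). Both rises passed under all 19 alternative settings, with adjusted P from 3.01e-05 to 0.0486 from MT to LT and from 1.58e-08 to 0.00805 from NP to LT. The exact permutation test of the difference between NP and LT gave the smallest P that 3 against 4 animals allow, 0.0286, and that between MT and LT gave 0.0571.

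TLR4 (ENSCPOG00000015159), the lipopolysaccharide receptor, was highest before pregnancy and fell. In TPM, the NP animals were at 25.7, 17.8 and 20.8, the MT animals at 12.0, 13.2 and 13.2, and the LT animals at 11.2, 10.6, 8.97 and 9.67. No 2 stages overlapped, and the exact permutation test of the F statistic over the 3 stages gave its smallest possible P, 0.000476. Means were 21.4 ± 3.99 TPM in NP (SD, n = 3), 12.8 ± 0.698 TPM in MT (SD, n = 3) and 10.1 ± 0.988 TPM in LT (SD, n = 4), so that NP was 2.12-fold above LT. By limma MT differed from NP by -0.69 on the log2 scale (SE 0.14, adjusted P = 0.0105) and LT from NP by -1.0 (SE 0.13, adjusted P = 0.00035). By edgeR these values were -0.64 (adjusted P = 0.0337) and -0.81 (adjusted P = 0.00316). Most of the difference thus lay between estrus and mid-pregnancy. Between MT and LT the value was -0.32 (SE 0.13, adjusted P = 0.0965) by limma and -0.17 (adjusted P = 0.45) by edgeR, neither past the test, although the animals did not overlap and the exact permutation P was 0.0286. The difference between MT and LT passed in 2 of 19 alternatives. These were limma with only the 2 stages compared (adjusted P = 0.0417) and without NP replicate 1 (0.0339). The fall from NP to LT passed under all 19 alternatives and the fall from NP to MT under 18 of them, the exception being the median-ratio scaling of TPM, with an adjusted P of 0.0511.

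LY96, also called MD-2, which forms the lipopolysaccharide-binding pocket with TLR4, was not called by limma or edgeR in any comparison. Its levels were 39.3, 35.7 and 38.6 TPM in the NP animals, 43.1, 37.0 and 41.4 TPM in the MT animals and 36.4, 35.2, 41.3 and 46.0 TPM in the LT animals. All stages overlapped, and the log2 fold changes of 0.09, -0.03 and 0.06 had adjusted P of 0.589, 0.85 and 0.642 by limma, the last being 0.37 (adjusted P = 0.0542) by edgeR. That rise from NP to LT did pass with the median-ratio scaling of TPM (0.38, adjusted P = 0.0393) and with DESeq2 (0.37, adjusted P = 0.04). The ratios among the 3 transcripts differed between stages. Such ratios of TPM within a library, which no scaling between libraries can change, were chosen after the values were seen and are given as a description. CD14 to TLR4 ranged from 0.882 to 1.5 in NP, from 1.87 to 2.5 in MT and from 4.48 to 12.6 in LT, with no overlap between stages. LY96 to TLR4 ranged from 1.53 to 2 in NP, from 2.8 to 3.59 in MT and from 3.25 to 4.76 in LT, with MT and LT overlapping.

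**Figure D3:**
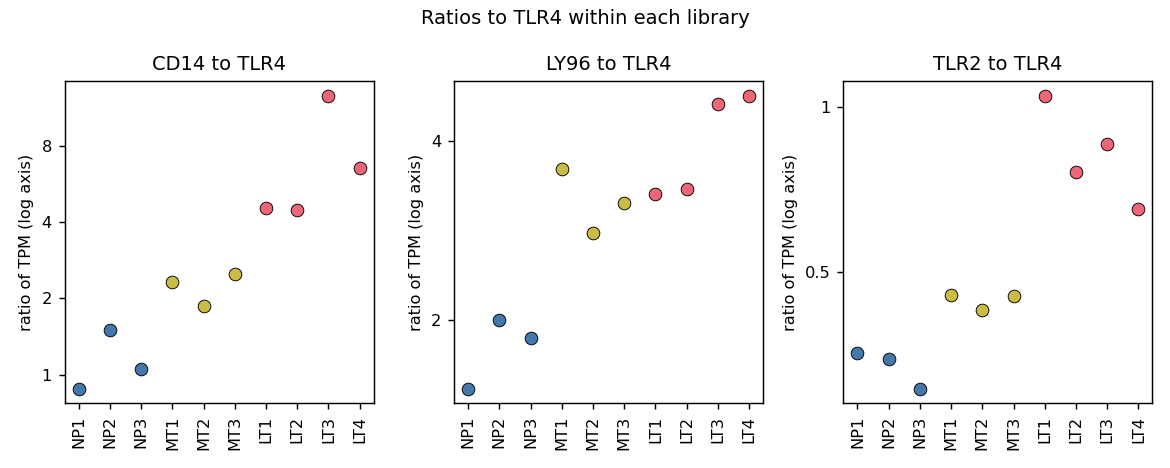
Ratio of CD14, LY96 and TLR2 to TLR4 in TPM within each animal, on a log axis. Each point is an animal. The CD14 and TLR2 ratios separate the 3 stages, with LT highest, and the LY96 ratio separates NP from the other two.

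TLR2 (ENSCPOG00000025374), the receptor for bacterial lipoproteins, was lowest in mid-pregnancy. The NP animals had 9.20, 6.20 and 6.37 TPM, the MT animals 5.46, 5.66 and 5.98 TPM, and the LT animals 11.8, 8.10, 7.69 and 6.30 TPM. All 3 MT animals were below all others, and NP and LT overlapped. The log2 fold change from MT to LT was 0.47 (SE 0.20, adjusted P = 0.0983) by limma, which did not pass, and 0.74 (adjusted P = 0.045) by edgeR, which did. It passed in 3 of 19 alternatives, with adjusted P from 0.0166 to 0.207, and the exact permutation P was 0.0571. Changes from NP to MT (-0.28, SE 0.21, adjusted P = 0.365) and from NP to LT (0.19, SE 0.20, adjusted P = 0.45) did not pass by either tool. Relative to TLR4, TLR2 ranged from 0.307 to 0.357 in NP, from 0.428 to 0.455 in MT and from 0.652 to 1.05 in LT. This ratio, too, was chosen after the values were seen.

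TLR1 and TLR6 pair with TLR2 at the cell surface. TLR1 had 2.95, 12.9 and 8.17 TPM in the NP animals, 8.92, 10.1 and 5.95 TPM in MT, and 4.54, 3.76, 3.11 and 2.56 TPM in LT. MT and LT did not overlap, and the log2 fold change of -1.05 between them had an adjusted P of 0.0592 by limma. TLR6 had 0.88, 8.85 and 4.55 TPM in NP, 3.88, 2.99 and 3.03 TPM in MT, and 2.24, 1.5, 1.31 and 0.97 TPM in LT. Its log2 fold change from MT to LT was -0.80 with an adjusted P of 0.208 by limma. For both genes NP replicate 1 was lowest and NP replicate 2 highest within NP, and no comparison of TLR1 or TLR6 passed by limma or by edgeR over all animals, while DESeq2 called TLR1 lower from MT to LT (adjusted P = 0.0212) and TLR6 lower from NP to LT (adjusted P = 0.0397). Without NP replicate 1, limma called both genes lower in LT than in MT (adjusted P = 0.00736 for TLR1 and 0.0258 for TLR6) and lower in LT than in NP (0.00189 and 0.00104), and TLR1 was also called from MT to LT without NP replicate 2 (0.0336).

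TLR7 (ENSCPOG00000015107), the endosomal RNA receptor, was highest before pregnancy. In TPM, the NP animals were at 4.87, 11.1 and 5.56, the MT animals at 3.16, 3.71 and 2.56, and the LT animals at 4.26, 2.47, 3.58 and 2.69. All 3 NP animals were above all pregnant animals, with NP replicate 2 far above the other NP animals, and MT and LT overlapped. By limma MT differed from NP by -0.91 on the log2 scale (SE 0.28, adjusted P = 0.0477) and LT from NP by -0.89 (SE 0.26, adjusted P = 0.0168). By edgeR the values were -1.04 (adjusted P = 0.0454) and -0.82 (adjusted P = 0.037). Without NP replicate 2 the NP mean was 5.22 TPM, and the values were -0.59 (adjusted P = 0.128) and -0.57 (adjusted P = 0.061), neither past the test. The fall from NP to MT passed in only 5 of 19 alternatives and the fall from NP to LT in 16. TLR8, the related endosomal receptor, rose from MT to LT. It had 1.65, 4.52 and 3.16 TPM in NP, 1.22, 1.75 and 1.39 TPM in MT, and 5.55, 3.03, 3.80 and 3.05 TPM in LT, a log2 fold change from MT to LT of 0.96 (adjusted P = 0.0241) by limma and 1.58 (adjusted P = 0.00836) by edgeR. The limma call of TLR8 was lost when any of the MT animals, LT replicate 1 or LT replicate 3 was left out.

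MYD88 (ENSCPOG00000024884), the adaptor shared by these receptors, passed the test in no comparison by limma or edgeR. The NP animals had 38.1, 47.8 and 53.0 TPM, the MT animals 30.5, 36.0 and 33.7 TPM, and the LT animals 43.4, 41.5, 36.7 and 30.5 TPM. The MT animals were below all NP animals, and LT overlapped with both other stages. Between NP and MT its log2 fold change was -0.45 (adjusted P = 0.0712) by limma and -0.34 (adjusted P = 0.105) by edgeR. Without NP replicate 1 it was -0.58 and passed, with an adjusted P of 0.0198 by limma. Between MT and LT it was 0.17 (adjusted P = 0.394) by limma and 0.36 (adjusted P = 0.0524) by edgeR, and it passed with the median-ratio scaling (0.35, adjusted P = 0.0451) and with DESeq2 (0.36, adjusted P = 0.0291). The value from NP to LT was -0.28 (adjusted P = 0.134) by limma and 0.02 (adjusted P = 0.89) by edgeR, so its sign depended on the scaling. Without NP replicate 1 it was -0.41 by limma and passed, with an adjusted P of 0.0317.

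Some adaptors and kinases below the Toll-like receptors fell by limma. IRAK4, the kinase that MYD88 recruits first, had a mean of 20.5 TPM before pregnancy and of 11.9 TPM in MT, a log2 fold change of -0.75 (adjusted P = 0.00974) by limma and -0.66 (adjusted P = 0.0201) by edgeR. TIRAP, which bridges TLR2 and TLR4 to MYD88, went from 21.9 to 13.5 TPM between MT and LT (-0.66, adjusted P = 0.00316 by limma and -0.52, adjusted P = 0.00782 by edgeR). TICAM1, the adaptor of the MYD88-independent branch, differed between NP and MT by -0.36 (adjusted P = 0.0381) by limma and by -0.27 (adjusted P = 0.142) by edgeR, and the limma call was lost in 7 of the 10 fits that left out 1 animal. The list of adaptors, kinases and transcription factors below the Toll-like receptors held 25 names, of which 21 were tested. From NP to MT 8 of them fell and none rose by limma, from MT to LT 7 fell and none rose, and from NP to LT 16 fell and none rose, with a median of -0.55 where all genes had -0.28, and 11.9%, 21.8% and 41.1% of all genes were called lower in these comparisons. By edgeR 4, 4 and 11 fell and 1, 1 and 2 rose, with a median from NP to LT of -0.28, and 7.61%, 15% and 24.9% of all genes were called lower.

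Among these genes, IRF5, a transcription factor activated downstream of TLR7 and MYD88, had means of 16.5, 7.03 and 5.97 TPM in NP, MT and LT. The fall from NP to MT was -1.11 by both tools, with adjusted P of 0.00183 by limma and 0.00305 by edgeR. IKBKE, a kinase that activates interferon regulatory factors, went from 22.8 to 12.0 TPM from NP to MT (-0.89, adjusted P = 0.0051 by limma and 0.0122 by edgeR). REL, an NF-kB subunit, had means of 8.41, 5.76 and 3.36 TPM in the same order. Between MT and LT this was -0.63 (adjusted P = 0.00622 by limma and 0.00767 by edgeR). TAB2 and TRAF6, which couple the receptors to the TAK1 kinase, also fell from MT to LT, by 0.60 and 0.54 on the log2 scale (adjusted P = 0.00425 and 0.0086 by limma, 0.0244 and 0.013 by edgeR). RELB, the NF-kB subunit of the non-canonical branch, and IRF3 were lower in LT than in NP by 1.19 and 1.38 on the log2 scale, with adjusted P of 0.00194 and 0.00072 by limma and 0.00464 and 0.00364 by edgeR. From NP to MT the limma calls of RELB and IRF3 were lost when, among others, MT replicate 2 or MT replicate 3 was left out.

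NOD1 (ENSCPOG00000014360), the sensor of peptidoglycan from Gram-negative bacteria, was highest in mid-pregnancy. In NP the animals had 7.93, 9.81 and 9.67 TPM, the MT animals 9.92, 12.2 and 10.7 TPM, and the LT animals 9.06, 7.95, 8.69 and 8.35 TPM. All MT animals were above all others, and NP and LT overlapped. The exact permutation test of the F statistic over the 3 stages gave P = 0.0176. Between NP and MT its log2 fold change was 0.24 (SE 0.13, adjusted P = 0.208) by limma and 0.39 (adjusted P = 0.027) by edgeR, and it passed in 3 of 19 alternatives. Between MT and LT it was -0.32 (SE 0.12, adjusted P = 0.0625) by limma and -0.19 (adjusted P = 0.159) by edgeR, neither past the test. The fall from MT to LT passed in 2 of 19 alternatives. These were limma with only the 2 stages compared (adjusted P = 0.0384) and without NP replicate 1 (0.0251). From NP to LT the log2 fold change was -0.09 (adjusted P = 0.552) by limma and 0.21 (adjusted P = 0.0965) by edgeR, with opposite signs.

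NOD2 (ENSCPOG00000010054), the sensor of muramyl dipeptide, was lowest in late pregnancy. The NP animals had 8.11, 6.42 and 6.82 TPM, the MT animals 7.11, 6.98 and 6.28 TPM, and the LT animals 4.09, 4.72, 5.43 and 4.62 TPM. All 4 LT animals were below all 6 others, and NP and MT overlapped. Means were 7.11 ± 0.883 TPM in NP (SD, n = 3), 6.79 ± 0.444 TPM in MT (SD, n = 3) and 4.72 ± 0.55 TPM in LT (SD, n = 4). The log2 fold change was -0.45 from MT to LT (SE 0.13, adjusted P = 0.0286 by limma) and -0.50 from NP to LT (SE 0.13, adjusted P = 0.00916). Exact permutation tests gave P = 0.0286 for both, the smallest possible value. On the read counts the values were -0.35 (adjusted P = 0.123) and -0.30 (adjusted P = 0.135) by edgeR, and neither passed. The limma calls were also lost with the median-ratio scaling, where the adjusted P was 0.155 and 0.222. On TPM without scaling, the call from MT to LT was lost without LT replicate 1, LT replicate 2, LT replicate 4 or any of the MT animals, with adjusted P from 0.0508 to 0.0954. Over all 19 alternatives the change from MT to LT passed in 9 and that from NP to LT in 15.

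The ratio of NOD1 to NOD2 within a library, a description chosen after the values were seen, ranged from 0.978 to 1.53 in NP, from 1.4 to 1.75 in MT and from 1.6 to 2.21 in LT, with each stage overlapping its neighbour. RIPK2, the kinase that both sensors recruit, had means of 42.8, 35.7 and 41.4 TPM in NP, MT and LT and was not called by limma. By edgeR it rose from MT to LT by 0.39 on the log2 scale (adjusted P = 0.0382). The list of NOD signalling held 14 genes, RIPK2 among them, and 10 were tested. From NP to LT 6 of them fell by limma and 4 by edgeR, beside 41.1% and 24.9% of all genes, and none rose by either tool. SLC46A2, a transporter linked to the uptake of cell wall peptides, had the largest fall of the list, with a mean of 7.58 TPM before pregnancy and of 0.59 TPM in MT. Its log2 fold change was -2.10 (adjusted P = 0.0176 by limma and 0.0137 by edgeR), the call was lost by limma without NP replicate 2, MT replicate 2 or MT replicate 3, and the NP mean was 3.77 TPM without NP replicate 1. SLC46A3 fell from NP to LT by 0.97 (adjusted P = 0.00128 by limma and 0.0114 by edgeR) and BIRC2, a ubiquitin ligase acting on RIPK2, by 0.63 (adjusted P = 0.000482 by limma and 0.00691 by edgeR).

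NLRP3 (ENSCPOG00000007681), the inflammasome sensor, was the least abundant member in NP and in LT. The NP animals had 4.58, 8.13 and 5.03 TPM, the MT animals 4.00, 3.67 and 3.43 TPM, and the LT animals 4.75, 2.93, 3.01 and 2.10 TPM. All NP animals were above all MT animals, LT overlapped with both, and 2 of 4 LT animals were below 3 TPM. The log2 fold change from NP to LT was -0.72 (SE 0.23, adjusted P = 0.0256) by limma and -0.58 (adjusted P = 0.0908) by edgeR. Without NP replicate 2, the animal that was also highest for TLR7, the NP mean was 4.80 TPM and the change was -0.50 with an adjusted P of 0.112. The change from NP to MT was -0.52 (SE 0.25, adjusted P = 0.167), and that from MT to LT was -0.20 (adjusted P = 0.548). The call from NP to LT held in 11 of 19 alternatives.

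Few of the other inflammasome genes could be tested. NEK7, the kinase that licenses NLRP3, had means of 44.3, 45.8 and 45.3 TPM in NP, MT and LT and was not called by limma, while edgeR called it higher in LT than in NP (0.33, adjusted P = 0.0119). CASP1, the protease that inflammasomes activate, was under 1 TPM in every animal and was not tested. PYCARD, IL1B, IL18 and UNC93B1 were not analysed here. TXNIP, which binds thioredoxin and has been described as a ligand of NLRP3, rose from a mean of 321 TPM to one of 842 TPM in mid-pregnancy and fell to 364 TPM in LT. The log2 fold changes were 1.37 (adjusted P = 0.00413 by limma and 0.00257 by edgeR) and -1.19 (adjusted P = 0.0048 by limma and 0.0073 by edgeR). PANX1, a channel that releases ATP, fell from NP to MT by 0.78 (adjusted P = 0.00777 by limma and 0.0162 by edgeR). Of the 5 genes tested on this list, 1 rose and 1 fell from NP to MT by both tools, where 6.07% of all genes were called higher and 11.9% lower by limma and 9.73% and 7.61% by edgeR.

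Brakes on these pathways moved in both directions. All 12 genes on the list of negative regulators were tested. By limma 1 rose and 2 fell from NP to MT, where 6.07% of all genes were called higher and 11.9% lower. From MT to LT 1 rose and 4 fell, where 6.53% were called higher and 21.8% lower, and from NP to LT 2 rose and 8 fell, where 10.8% of all genes were called higher and 41.1% lower. By edgeR 3 rose and 3 fell from NP to LT, where 23.0% of all genes were called higher and 24.9% lower. NFKBIA, the inhibitor that holds NF-kB in the cytoplasm and is itself induced by it, rose from 97.3 to 203 TPM between NP and MT (1.04, adjusted P = 0.00769 by limma and 1.18, adjusted P = 0.00864 by edgeR). ZC3H12A, a ribonuclease that degrades inflammatory transcripts, fell from 16.0 to 4.45 TPM in the same comparison (-1.62, adjusted P = 0.00268 by limma and 0.00706 by edgeR). CYLD, a deubiquitinase, had means of 59.4, 41.3 and 25.9 TPM in NP, MT and LT, and its fall from NP to LT was 1.17 on the log2 scale (adjusted P = 0.000105 by limma and 0.000109 by edgeR). SIGIRR, a receptor that restrains Toll-like receptor signalling, fell from 26.8 to 13.1 TPM between MT and LT, by 1.03 on the log2 scale (adjusted P = 0.00935 by limma and 0.0149 by edgeR).

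Some sensors of nucleic acid in the cytosol and some inflammatory target genes also fell from NP to MT. Of 7 cytosolic sensors tested, 3 fell and none rose from NP to MT by limma and by edgeR, beside 11.9% and 7.61% of all genes called lower. DDX58, also called RIG-I, went from 35.3 to 11.0 TPM between NP and MT (-1.42, adjusted P = 0.0166 by limma and 0.026 by edgeR). NP replicate 1 was highest, with 61.2 TPM against 25.2 and 19.4 TPM, and without it the fall was 0.95 on the log2 scale and still passed by limma, while it was lost without MT replicate 3. DHX58 and IFIH1, the other sensors that fell, were also highest in NP replicate 1. In NP, DHX58 had 42.4, 15.3 and 8.02 TPM and IFIH1 31.8, 16.5 and 14.9 TPM. Both limma calls held without NP replicate 1 and were lost without MT replicate 1 or MT replicate 3, and that of DHX58 also without NP replicate 2. TMEM173, also called STING, was the exception of the list and rose from 74.9 to 146 TPM between NP and LT (1.02, adjusted P = 0.00717 by limma and 0.00873 by edgeR). Of 6 tested targets of NF-kB and interferon regulatory factors, 3 fell from NP to MT by limma and 3 by edgeR, beside the same shares of all genes, with CXCL10 and NFKBIZ called by both. CXCL10, a chemokine for T cells, went from 19.7 to 2.20 TPM (-2.41, adjusted P = 0.0108 by limma and 0.0183 by edgeR), and its NP mean was 10.1 TPM without NP replicate 1. NFKBIZ, an NF-kB co-factor, went from 37.9 to 14.4 TPM (-1.32, adjusted P = 0.00232 by limma and 0.00659 by edgeR).

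Of 7 accessory genes of the Toll-like receptors tested, 1 rose and 1 fell from NP to LT by limma, and 2 rose and 1 fell by edgeR, which added the lipid receptor CD36 (0.76, adjusted P = 0.0421). Of all genes 10.8% were called higher and 41.1% lower by limma in that comparison, and 23.0% and 24.9% by edgeR. The limma calls were HSP90B1, the chaperone that folds the receptors (0.45, adjusted P = 0.0351), and LY86, the partner of the receptor CD180 (-1.32, adjusted P = 0.00206), and both were also called by edgeR. The limma call of HSP90B1 was lost without NP replicate 2, NP replicate 3, LT replicate 1 or LT replicate 2. Of 4 other genes of the NOD-like family tested, 3 fell from NP to LT by limma and 2 of these by edgeR, beside 41.1% and 24.9% of all genes, among them CIITA, the regulator of MHC class II genes (-1.15, adjusted P = 0.00166 by limma and 0.00299 by edgeR).

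Over the 9 lists of pathway genes together, 115 names were listed, 80 had a row and 75 were tested. From NP to MT 2 rose and 20 fell by limma (29.3% called, median log2 fold change -0.25), from MT to LT 2 rose and 15 fell (22.7%, median -0.18), and from NP to LT 4 rose and 41 fell (60.0%, median -0.52). By edgeR 3 rose and 15 fell, 5 rose and 10 fell, and 10 rose and 27 fell, with 24.0%, 20% and 49.3% called. All tested genes gave 18.0%, 28.3% and 51.9% by limma and 17.3%, 28.1% and 48.0% by edgeR, and among the pathway genes falls outnumbered rises by both tools. By limma this was also so over all tested genes, with 1595 lower and 815 higher from NP to MT, 2923 and 877 from MT to LT, and 5522 and 1446 from NP to LT. By edgeR all tested genes were nearer to balance, with 1022 lower and 1306 higher, 2019 and 1750, and 3348 and 3089. Whether the pathway genes differ from all genes in this respect was not tested.

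**Figure D4:**
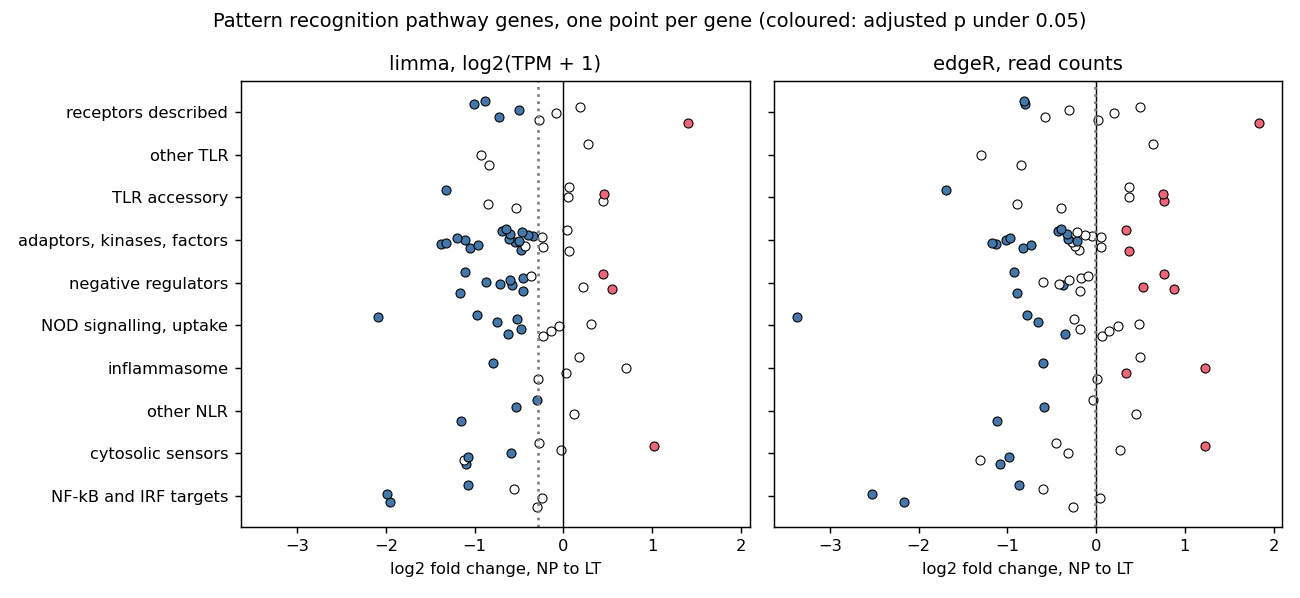
Log2 fold change from NP to LT of the tested genes among the members and in each pathway list, by limma on log2(TPM + 1) and by edgeR on read counts. Each point is a gene, coloured where the adjusted P is under 0.05. The dotted line marks the median of all tested genes by the same tool. The adaptors, kinases and factors have 16 of 21 tested genes lower by limma and 11 by edgeR.

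Markers of leukocytes also differed between the stages. Of the 16 myeloid markers listed, 10 had a row and 9 were tested, and MPO, a granule enzyme of neutrophils, was under 1 TPM in every animal. Of these, 4 rose and none fell from MT to LT by both tools, beside 6.53% of all genes called higher by limma and 13.0% by edgeR. Their summed level ranged from 4694.6 to 8594.6 TPM in NP, from 9156.9 to 13491.9 TPM in MT and from 15232.7 to 19507.4 TPM in LT, most of it from S100A8 and S100A9, which squamous epithelium also expresses. Without these 2 genes, a sum chosen after the values were seen, it ranged from 242.2 to 456.3 TPM in NP, from 194.3 to 236.4 TPM in MT and from 300.9 to 473.8 TPM in LT. CD163, a scavenger receptor of macrophages, had 5.18, 4.19 and 3.59 TPM in NP, 6.11, 3.34 and 5.63 TPM in MT, and 20.7, 13.0, 47.3 and 30.2 TPM in LT. It rose from MT to LT by 2.14 on the log2 scale (adjusted P = 0.00404 by limma), and its LT animals stood in the same order as those of CD14. C1QB, a complement subunit made by macrophages, rose in the same comparison by 1.46 (adjusted P = 0.0018) and CSF3R, the G-CSF receptor of neutrophils, by 1.16 (adjusted P = 0.0397, lost without LT replicate 1, LT replicate 2 or any of the MT animals). CSF1R, the growth factor receptor of macrophages, had means of 38.1, 27.1 and 31.2 TPM and was not called. The ratio of CD14 to CD163 ranged from 4.38 to 6.4 in NP, from 4.58 to 7.42 in MT and from 2.08 to 3.65 in LT, with the LT values below those of the other stages, a description chosen after the values were seen. From NP to LT 5 myeloid markers rose by both tools, beside 10.8% and 23.0% of all genes. They were CD163, C1QB and CSF3R, and also S100A8 and S100A9, the 2 genes that squamous epithelium expresses too. AIF1 fell by limma from 50.1 to 25.8 TPM (-0.89, adjusted P = 0.0162, and 0.0509 by edgeR). TYROBP, with means of 117 and 76.5 TPM, and the macrophage marker CD68, with means of 58.9 and 52.1 TPM, were not called. The AIF1 call was lost without NP replicate 2 (0.0741) or NP replicate 3 (0.0562), and limma called TYROBP lower without NP replicate 1 (-0.94, adjusted P = 0.00749). The part of these markers in the rise of CD14 was not tested.

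**Figure D5:**
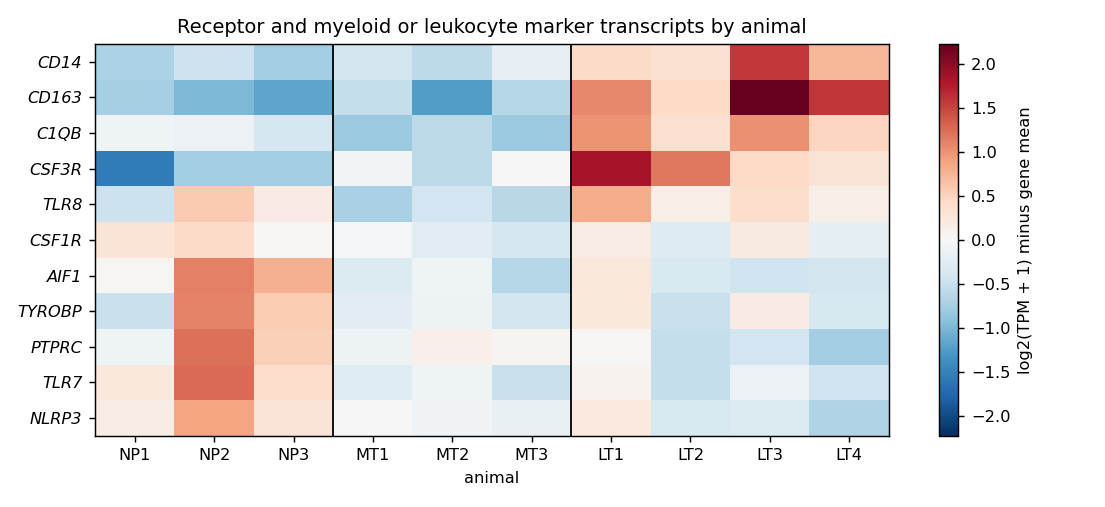
Level of CD14, TLR7, TLR8 and NLRP3 and of leukocyte markers in each animal, as log2(TPM + 1) minus the mean of the gene over the 10 animals. CD14, CD163 and C1QB are highest in the 4 LT animals, and TLR7, NLRP3, TYROBP and PTPRC are highest in NP replicate 2.

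NP replicate 2, which was highest for TLR7, NLRP3, TLR1 and TLR6, also had the highest level of PTPRC (CD45), the pan-leukocyte phosphatase, at 23.4 TPM. The other NP animals had 8.7 and 14.0 TPM, MT had 8.7, 10.3 and 9.9 TPM, and LT had 9.6, 6.2, 6.7 and 5.1 TPM. The fall of PTPRC from NP to LT was 0.98 on the log2 scale (adjusted P = 0.0158 by limma), and it was 0.65 without NP replicate 2 (adjusted P = 0.0605). The summed level of the lymphoid marker list, of which PTPRC is itself a member, was 72.8 TPM in NP replicate 2 and between 16.0 and 40.6 TPM in the other NP animals, from 21.0 to 39.8 TPM in MT and from 9.5 to 23.5 TPM in LT. Of the 8 genes of that list tested, PTPRC among them, 2 fell from NP to LT by limma and 3 by edgeR, beside 41.1% and 24.9% of all genes, and none rose. Their part in the fall of TLR7 and NLRP3 from NP to LT was not tested.

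The labelled tissue was checked against its markers. Summed levels of the smooth muscle, stroma, squamous and endothelial markers were above 50 TPM in every animal, although the squamous marker IVL was at 0.19 to 1.12 TPM in the LT animals, and the 5 reproductive tract markers with a row summed to between 193.3 and 645.8 TPM, with 4 lower and none higher in LT than in NP by limma, beside 41.1% of all genes called lower, and 4 lower and 1 higher by edgeR, beside 24.9% lower and 23.0% higher. Squamous marker sums ranged from 1491.8 to 3662.7 TPM in NP, from 701.2 to 1946.6 TPM in MT and from 2169.7 to 3766.3 TPM in LT, so they varied within and between stages, and of 7 tested 1 rose and 1 fell from NP to LT by limma, beside 10.8% and 41.1% of all genes, and 2 rose and 1 fell by edgeR, beside 23.0% and 24.9%. The squamous list also holds CDH1 and EPCAM, which are not particular to squamous epithelium. In MT replicate 2, whose squamous sum was the lowest at 701.2 TPM, these were at 148 and 361 TPM and KRT14 at 133 TPM. KRT14 ranged from 919 to 2825 TPM in NP, from 133 to 1142 TPM in MT and from 1430 to 2803 TPM in LT. Endothelial sums fell from between 124.6 and 175.8 TPM in NP to between 53.6 and 77.3 TPM in LT, with all 6 tested genes lower by both tools, beside 41.1% and 24.9% of all genes. Stroma sums ranged from 6438.2 to 11889.2 TPM and smooth muscle sums from 7652.9 to 23857.8 TPM over all animals. From NP to LT 2 of 6 stroma genes were lower by both tools, beside 41.1% and 24.9% of all genes. None of the 6 was higher by limma, beside 10.8%, and 1 was higher by edgeR, beside 23.0%. None of 7 smooth muscle genes was called in that comparison by either tool. The part of these marker levels in the falls of TLR4 and NOD2 was not tested.

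The genes whose profile over the 10 animals was most like that of a called member were found by the root mean square (RMS) distance of log2(TPM + 1) values after centring each gene on its mean. For TLR4 they were AKIRIN2, RBFOX2 and TRIM21, at distances from 0.092 to 0.109 where the RMS of TLR4 about its own mean was 0.441. For NOD2 they were CFLAR, LPGAT1 and DENND5B (0.067 to 0.095, beside 0.259), for TLR7 FYB, NCKAP1L and P2RY13 (0.156 to 0.176, beside 0.513), and for NLRP3 HHEX, RGS18 and NCKAP1L (0.112 to 0.129, beside 0.404). NCKAP1L, a subunit of an actin regulator in blood cells, was thus on the lists of both TLR7 and NLRP3. For CD14 they were TPI1, HIGD1A and IGFBP4, at 0.257 to 0.289 beside an RMS of 0.714.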

How the data were processed

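Cervix RNA of 10 guinea pigs (poly A selected, strand-specific single reads) was analysed. The authors called bases with CASAVA 1.8.2, aligned reads with TopHat2 to cavPor3.69 and counted them per Ensembl gene with HTSeq 0.5.4p1, per the submitters' processing notes and the study's methods. The deposited table holds the read count and the TPM value that the authors made from it, for each gene and animal. Each column was matched to 1 animal by its label, and no column was left without one. After division by the median of each library, and for values of at least 20 reads, the count divided by the TPM of a gene was the same in all animals to within a relative deviation of 0.0034.

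Genes were matched by gene name, 2 of them ignoring case. The members and the gene lists were chosen with earlier results of these data known. The 13421 genes whose average over the 10 animals reached 1 TPM were tested with limma 3.58.1 (trend) on log2(TPM + 1) in R 4.3.3, with no term beside the stage, two-sided tests and Benjamini-Hochberg adjustment. A call is an adjusted P under 0.05. The study tested square-root TPM, which is among the alternatives. Exact permutation tests of single genes used square-root TPM, where 3 animals against 3 cannot give a P below 0.1 and 3 against 4 none below 0.0286. The 19 alternatives were edgeR 4.0.16 (quasi-likelihood, TMM factors from 0.923 to 1.138) and DESeq2 1.42.0 on the counts, other transformations, filters and scalings, a fit of only the stages compared, a replicate block, and leaving out each of the 10 animals. The edgeR and limma scripts were tested on simulated data. Where nothing else is stated, P-values measure the spread between these animals.

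All members and their direct partners are named. Beyond these, the genes that could be named were up to 4 per pathway list and comparison, those with the largest change among called genes whose animals do not overlap. For each called member, the 3 genes most like it are given. Markers and totals came from 7 further lists.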

Additional observations from a re-analysis of the deposited data

Results flagged for a closer look

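Among 59 genes checked in the 4 LT animals, 2 had an animal far from the others, where the gap to the nearest animal divided by the whole range was above Dixon's 95% critical value, and chance alone gives such a value in about 1 of 20 groups. For AIF1, a macrophage marker, this value was 0.89, with LT replicate 1 at 35.7 TPM and the others between 21.8 and 23.4 TPM. LT replicate 1 also had the highest level of its stage for 6 of the 8 members, TLR2, TLR4, TLR7, MYD88, NOD1 and NLRP3. For ERBB2IP, a partner of NOD2, the value was 0.8291, with LT replicate 4 at 48.6 TPM and the others between 44.4 and 45.1 TPM.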

How the results depend on the processing

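The direction of the called changes of CD14 and TLR4 held under all 19 alternatives. The sign turned for values that were not called: NOD2 from NP to MT was 0.066 with the median-ratio scaling, 0.042 by edgeR and 0.044 by DESeq2, and from -0.117 to 0.031 with 1 animal left out (0.031 without NP replicate 1). MYD88 from NP to LT was 0.041, 0.022 and 0.025 under these 3 settings, and NOD1 from NP to LT was 0.205, 0.206 and 0.208. TLR7 from MT to LT was from -0.084 to 0.122 with 1 animal left out, and below zero without MT replicate 3, LT replicate 1 or LT replicate 3. The number of members called from NP to MT was 1, TLR4 as lower, with square-root TPM, without a filter and with only the 2 stages compared. It was also 1 with the median-ratio scaling, but that gene was NOD1 as higher, with TLR4 (adjusted P = 0.0511) and TLR7 (0.0581) lost. From MT to LT it was 4 with only the 2 stages compared, and from NP to LT it was 2 with the median-ratio scaling and 3 by edgeR and by DESeq2. With only the 2 stages compared, 1125 genes were called from NP to MT. Leaving out 1 animal gave 1 to 3 members from NP to MT, 1 to 4 from MT to LT and 3 to 6 from NP to LT. It gave 1140 genes (without MT replicate 3) to 4294 genes (without NP replicate 1) from NP to MT, 1928 (without MT replicate 2) to 5493 (without NP replicate 1) from MT to LT, and 5432 to 8028 from NP to LT. The cause of these changes was not tested.

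NP, MT and LT share replicate numbers, so deviations from the stage means were correlated between animals of the first 3 numbers. For same-numbered animals the correlations were 0.244, 0.157 and 0.067 between NP and MT, beside -0.258 to 0.242 for different numbers. Between MT and LT they were -0.143, -0.019 and 0.073, beside -0.064 to 0.119. Between NP and LT they were -0.279, 0.141 and -0.168, beside -0.196 to 0.226. Same-numbered values were thus all above zero only between NP and MT, and not every animal correlated best with its own number. With the replicate number as a block, 1 member was called from NP to MT, 1 from MT to LT and 2 from NP to LT, and 1622, 1707 and 5576 genes in all. The number of animals limits the precision of every value, and no detection limit was measured.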
